A study of Mus musculus with 8 samples.

Results

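The genes described here are the Zscan4 copies Zscan4a, Zscan4b, Zscan4c, Zscan4d, Zscan4e and Zscan4f together with Usp17la, Tmem92 and Gm8300, genes known for transient expression in the mouse 2-cell embryo. They were chosen by symbol from a table of raw RNA sequencing counts for 24888 genes. Of the 9 listed, 8 had a row in the table, and Zscan4e was not analysed here. All 8 measured members had counts in all 8 libraries. The rule itself used symbols and no measured values, but the members were chosen with earlier results of these data known.

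The table held 8 mouse libraries, 1 per group, all derived from the E14 embryonic stem cell line. ESC were E14 cells kept on gelatin in serum medium with LIF, CHIR99021 and PD0325901. EPSC, expanded potential stem cells, were ESC carried for 5 passages in a medium with knockout serum replacement, LIF, CHIR99021, PD0325901, JNK Inhibitor VIII, SB203580, A-419259 and XAV939. ESC T09 and EPSC T09 were the same cells after 3 days with T0901317 (T09), which activates the liver X receptors (LXR) and for which the labels give 1 uM/mL, an unclear unit. Blastoids are blastocyst-like aggregates of stem cells, grown here in microwells in a medium whose later form held FGF4, heparin, CHIR99021, BMP4 and A83-01. The siNr1h2 and siNT blastoids came from EPSC transfected with siRNA against Nr1h2, which encodes LXR beta, or with a non-targeting siRNA, and were harvested at 48 hours as day 2 aggregates. The Type I and Type III blastoids, titled Gd and Bad, came from T09-treated EPSC and were picked on day 5, and no dose or duration of T09 is given for them. Nothing in the labels says that groups came from separate cultures, and no group had a replicate. A comparison of 2 libraries therefore carried no p-value, and its 95% interval speaks for counting error alone.

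Levels are in CPM, counts scaled to a common depth after TMM scaling for library composition. Total counts ran from 24666260 to 40781415 per library, so a count of 0 allowed up to 0.0741 to 0.114 CPM, taken as 3 counts. Nr1h2 itself stood at 37.7 CPM in the siNr1h2 library and 53.9 CPM in siNT, a log2 ratio of -0.51 (interval -0.62 to -0.40), so the knockdown was partial. Summed markers of pluripotent stem cells were 5317 to 8485 CPM in the ESC and EPSC libraries, 2760 and 2830 CPM in the day 2 blastoids and 851 to 1586 CPM in the day 5 blastoids, with 0 of 10 markers at 0 counts in any library. Primitive endoderm markers went the other way, from 193 to 541 CPM in the stem cells to 3101 and 3275 CPM at day 2 and 12645 to 22429 CPM at day 5. Trophectoderm markers summed to 98.9 to 120 CPM in stem cells, 236 and 243 CPM at day 2 and 1364 to 1511 CPM at day 5, and fibroblast markers to 5.47 to 23.1 CPM over all libraries.

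In the mouse embryo the first large wave of transcription from the zygotic genome occurs at the 2-cell stage, and a short-lived program then switches on Zscan4, Usp17-like, Eif1a-like and other genes. A small, changing fraction of cells in an embryonic stem cell culture re-enters such a program, which makes these genes markers of the 2-cell-like state. The homeobox factor Dux is a direct activator of the program, Dppa2 and Dppa4 act upstream of Dux, and several chromatin repressors hold it down. Zscan4 genes encode proteins with a SCAN domain and zinc fingers that are known for a role in telomere maintenance. Since these are bulk libraries, fewer cells in this state and less RNA per cell cannot be told apart.

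The upstream sequences of the Zscan4 copies are shown first. They lie before the annotated starts. The likeness of the transcripts, given further below, is what bears on the values per copy. The RefSeq promoter table matched 5 of the 8 measured members, namely Zscan4b, Zscan4c, Zscan4d, Zscan4f and Usp17la. Each line gives 158 bases from GRCm38.p6 that end at the TATA box, in the direction of the gene. Capitals mark the letters TATAAAAG and, at the left, TGATTCAA, the letters at the start of the known Dux motif. The windows are Zscan4b chr7:10905074-10905231 (- strand), Zscan4c chr7:11005541-11005698 (+ strand), Zscan4d chr7:11166206-11166363 (- strand) and Zscan4f chr7:11397734-11397891 (+ strand).

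Zscan4b: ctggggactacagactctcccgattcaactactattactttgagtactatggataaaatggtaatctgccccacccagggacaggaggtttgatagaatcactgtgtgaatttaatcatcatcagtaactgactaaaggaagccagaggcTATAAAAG
Zscan4c: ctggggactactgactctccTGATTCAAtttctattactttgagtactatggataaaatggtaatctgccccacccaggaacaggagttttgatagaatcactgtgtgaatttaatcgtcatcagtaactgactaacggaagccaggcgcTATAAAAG
Zscan4d: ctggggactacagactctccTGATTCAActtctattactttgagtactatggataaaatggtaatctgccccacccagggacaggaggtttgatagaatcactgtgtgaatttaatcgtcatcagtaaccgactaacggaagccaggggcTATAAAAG
Zscan4f: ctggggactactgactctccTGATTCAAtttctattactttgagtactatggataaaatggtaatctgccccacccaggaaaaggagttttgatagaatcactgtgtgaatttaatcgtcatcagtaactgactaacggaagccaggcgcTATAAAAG

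Between pairs of these windows the identity was 93.0% to 99.4%, highest between Zscan4c and Zscan4f. The windows were placed by the letters GATTCAA at the left and cut to end at TATAAAAG, so the shared place of these letters is built in. TATAAAAG starts 31 bases before the annotated start in Zscan4b and Zscan4f, 54 before it in Zscan4c and 65 before it in Zscan4d. Of 32851 promoters, searched over the 250 bases before the start, 1.51% held TATAAAAG on either strand. The letters TGATTCAA were present in Zscan4c, Zscan4d and Zscan4f, and 0.539% of promoters held them. They were chosen after these promoters had been seen. The promoter of Zscan4b lacked TGATTCAA and held CGATTCAA at that place, and that of Usp17la lacked both TGATTCAA and TATAAAAG. Neither the Dux core GATTNAATC (0.247% of promoters), nor the Zscan4 binding letters TGCACAC (3.67%), nor the octamer ATGCAAAT (1.60%) was found in these upstream bases of the matched members. These motifs were searched on both strands; TGATTCAA and GATTNAATC can overlap. A match is a description of letters only.

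Reads from near-identical copies can be divided among rows or dropped, and how this was done is not stated, so the 5 Zscan4 rows are also given as 1 sum. In GENCODE M21 the annotated transcripts of Zscan4a to Zscan4f that have a row were 96.6% to 99.6% identical in pairs. Of all stretches of 100 bases in the transcript, the share found in no other annotated transcript was 60.9% for Zscan4a, 21.3% for Zscan4b, 27.2% for Zscan4c, 70.4% for Zscan4d and 10.5% for Zscan4f. It was 96.2% for Usp17la, 100% for Tmem92 and 89.2% for Gm8300. Tmem92, on chromosome 11, thus has the most distinct transcript of the members. The Zscan4 copies and Usp17la lie on chromosome 7 and Gm8300 on chromosome 12. Zscan4a is annotated as an unprocessed pseudogene, the other members as protein coding, and none of the members overlaps another annotated gene.

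The Zscan4 sum was lowest in EPSC and highest in the day 2 blastoids, with ESC and the day 5 blastoids between them. It was 20.8 CPM in ESC (689 counts), 11.6 CPM in ESC T09 (417), 2.78 CPM in EPSC (106) and 1.98 CPM in EPSC T09 (80). In the blastoids it was 74.0 CPM in siNT (2911 counts), 87.5 CPM in siNr1h2 (2294), 23.6 CPM in Type III (775) and 7.91 CPM in Type I (284). The highest and the lowest library differed 44.3-fold. In ascending order the libraries ran EPSC T09, EPSC, Type I, ESC T09, ESC, Type III, siNT and siNr1h2. All 7 pairs of neighbours in that order differed beyond counting error, the closest being Type III over ESC with a log2 ratio of 0.18 (0.03 to 0.33) and siNr1h2 over siNT with 0.24 (0.16 to 0.32). Spread between cultures was not measured, so such small steps have no replicate check.

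**Figure D1:**
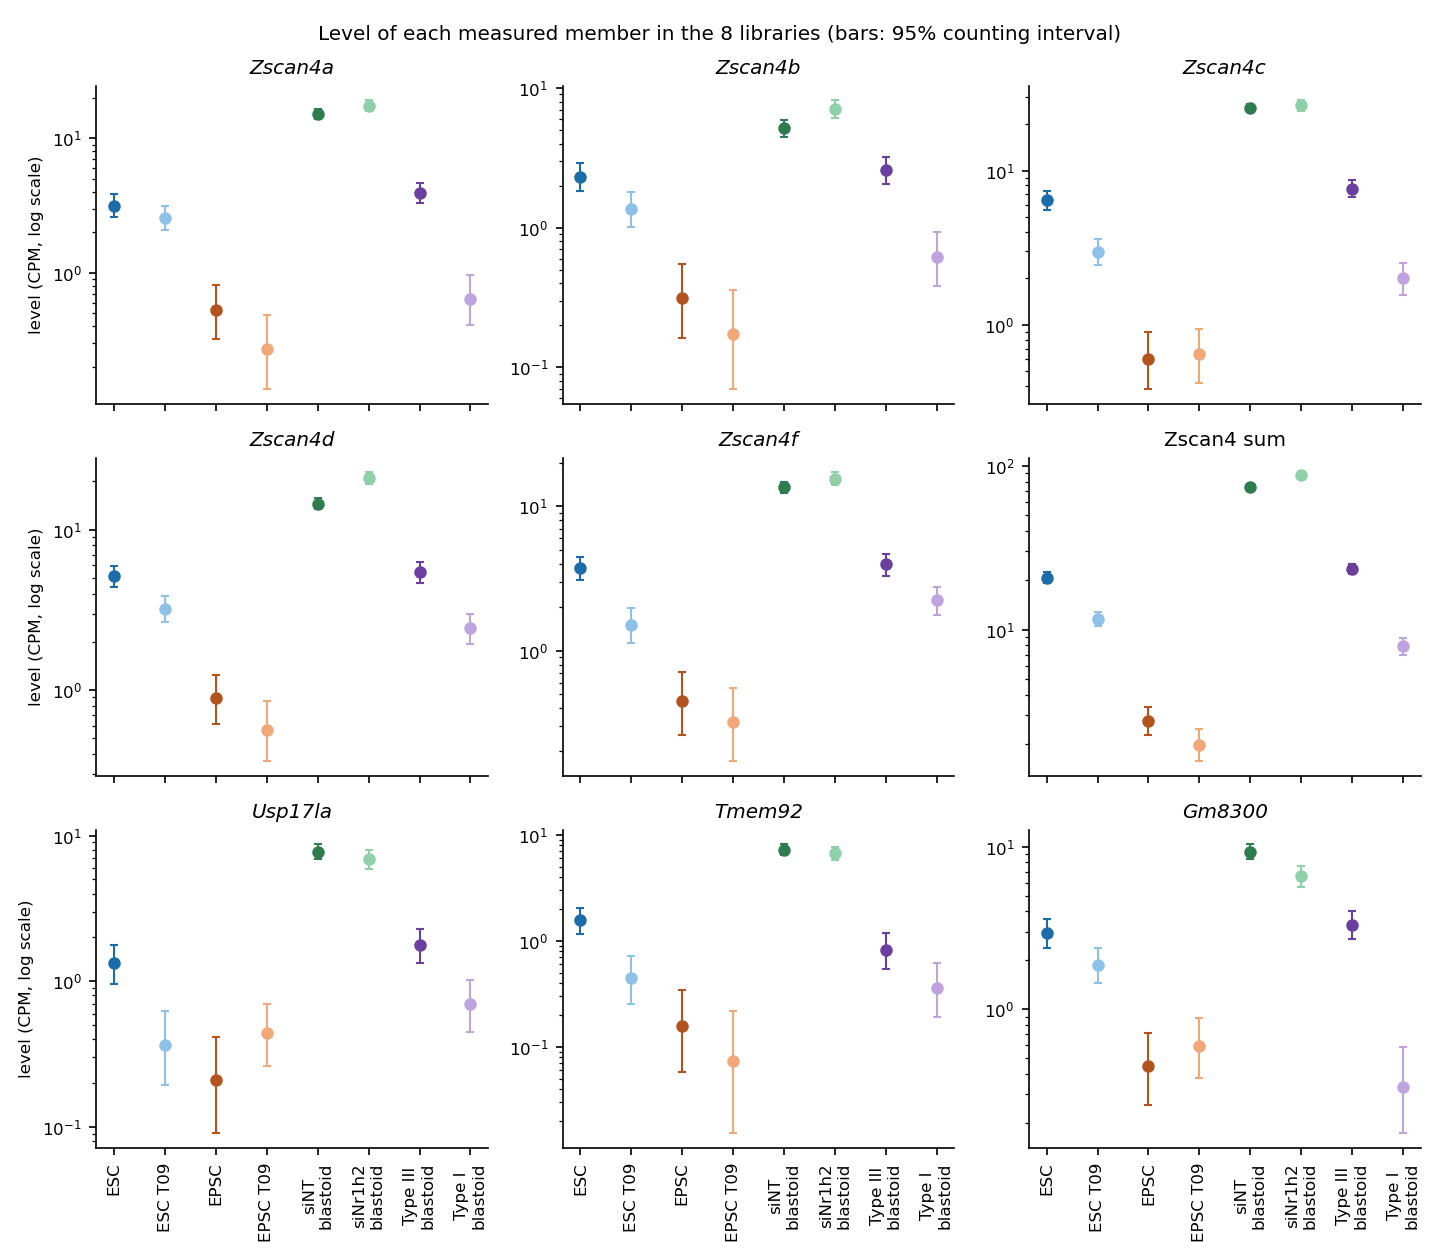
Level of each measured member and of the Zscan4 sum (y axis, CPM on a log scale) in the 8 libraries (x axis), with 95% exact Poisson counting intervals. Both day 2 blastoid libraries are the highest for all 8 members, and 7 of 8 members are lowest in EPSC or EPSC T09, with Gm8300 lowest in Type I.

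The copies followed one order of libraries closely. Zscan4c, the copy with the highest total count, was at 6.42 CPM in ESC, 2.99 in ESC T09, 0.602 in EPSC, 0.642 in EPSC T09, 25.4 in siNT, 26.4 in siNr1h2, 7.64 in Type III and 2.01 in Type I. Zscan4d was at 5.12, 3.21, 0.890, 0.568, 14.5, 20.9, 5.45 and 2.42 CPM in the same order of libraries. In both rows the EPSC libraries were the low pair and the day 2 blastoids the high pair, with no overlap of their intervals with those of ESC. Zscan4a was at 3.16, 2.57, 0.524, 0.272, 15.2, 17.5, 3.95 and 0.641 CPM, and its Type I interval (0.406 to 0.962) overlapped that of EPSC (0.320 to 0.809). Zscan4f was at 3.74, 1.51, 0.445, 0.321, 13.6, 15.6, 3.95 and 2.23 CPM, so its Type I level lay nearer to Type III than that of the other copies. Zscan4b, with the fewest counts of the copies, ran from 0.173 CPM in EPSC T09 to 7.06 CPM in siNr1h2.

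The division of the Zscan4 counts among the rows moved less than their sum. Over the 8 libraries Zscan4c held 21.7% to 34.4% of the summed counts, Zscan4d 19.6% to 32.1%, Zscan4a 8.10% to 22.1%, Zscan4f 12.9% to 28.2% and Zscan4b 6.97% to 11.8%. Type I had the smallest share of Zscan4a and the largest of Zscan4f. There Zscan4a held 8.10% (exact binomial interval 5.20 to 11.9%) against 16.8% in Type III (14.2 to 19.6%), and Zscan4f 28.2% (23.0 to 33.8%) against 16.8% (14.2 to 19.6%). Only 284 counts stood behind the Type I shares, and what the unknown handling of shared reads contributed was not tested. Per kilobase of exon, in siNT, Zscan4c was at 11.2 CPM per kb, Zscan4f at 6.94, Zscan4a at 6.69, Zscan4d at 6.40 and Zscan4b at 2.86. Gm8300 followed Zscan4d on that scale with 4.98 CPM per kb, ahead of Tmem92 with 3.30 and Usp17la with 2.93.

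**Figure D2:**
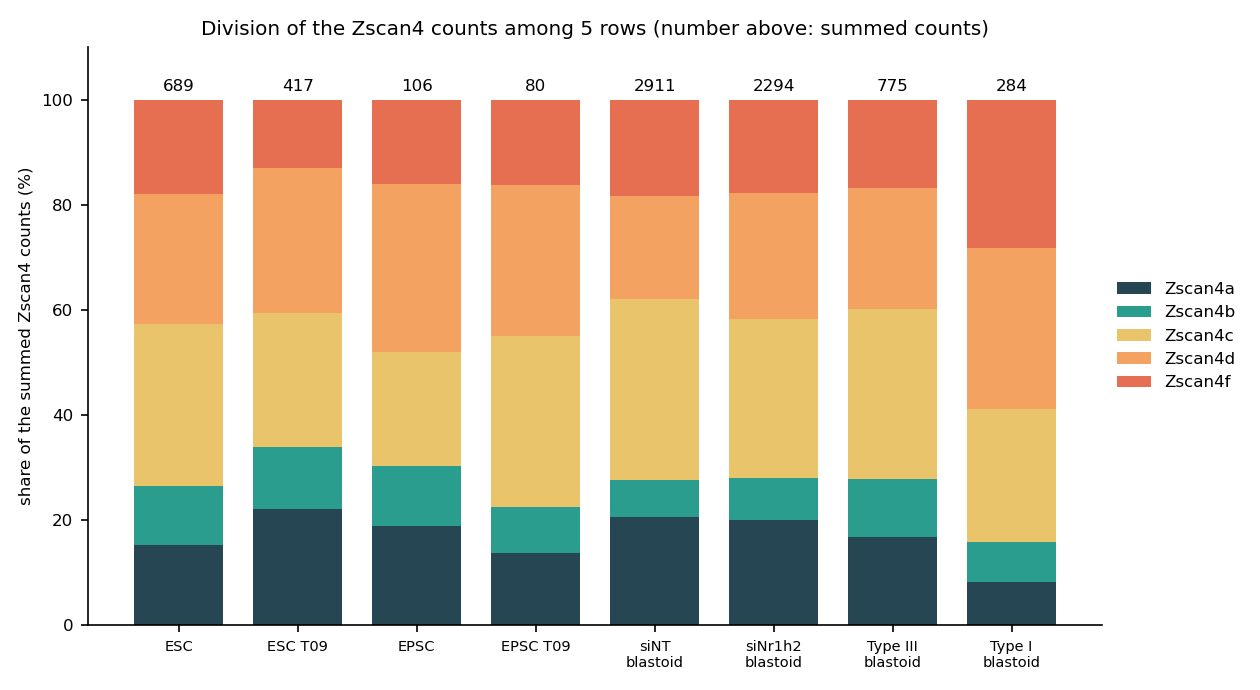
Share of the summed Zscan4 counts (y axis, percent) that fell to each of 5 rows in each library (x axis), with the summed counts above each bar. Zscan4b is the smallest segment in each of the 8 bars, and the Type I bar has the smallest Zscan4a and the largest Zscan4f segment.

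Usp17la encodes a deubiquitinating enzyme of the Usp17-like family. It was at 1.33 CPM in ESC (44 counts), 0.363 in ESC T09 (13), 0.209 in EPSC (8), 0.445 in EPSC T09 (18), 7.77 in siNT (306), 6.86 in siNr1h2 (180), 1.76 in Type III (58) and 0.697 in Type I (25). The day 2 blastoids were high, ESC and Type III intermediate, and the intervals of ESC T09, EPSC and EPSC T09 overlapped. Its transcript was 90.6% to 94.9% identical to those of Usp17lb, Usp17lc, Usp17ld and Usp17le, so the 5 Usp17-like rows were also summed. That sum was 4.22 CPM in ESC, 2.65 in ESC T09, 0.943 in EPSC, 1.66 in EPSC T09, 35.5 in siNT, 38.7 in siNr1h2, 7.33 in Type III and 3.09 in Type I.

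Tmem92, which encodes a small transmembrane protein, had the widest range of the members. It was at 1.57 CPM in ESC (52 counts), 0.446 in ESC T09 (16), 0.157 in EPSC (6), 0.0741 in EPSC T09 (3), 7.21 in siNT (284), 6.67 in siNr1h2 (175), 0.821 in Type III (27) and 0.362 in Type I (13). Its Type III interval (0.541 to 1.20 CPM) only just overlapped that of ESC (1.17 to 2.06 CPM), and among the members it alone had a Type III level below that of ESC. The EPSC libraries rested on 6 and 3 counts.

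Gm8300 is an Eif1a-like gene, related to the gene of a translation initiation factor. Its transcript was 86.7% identical to that of Eif1a and 93.3% to 98.4% to those of the related genes Gm2016, Gm2022, Gm5662 and Gm5039, the Gm2022 value over only 435 aligned bases. It was at 2.95 CPM in ESC (98 counts), 1.87 in ESC T09 (67), 0.445 in EPSC (17), 0.593 in EPSC T09 (24), 9.32 in siNT (367), 6.60 in siNr1h2 (173), 3.32 in Type III (109) and 0.334 in Type I (12). The 3 lowest libraries, Type I, EPSC and EPSC T09, had overlapping intervals. Gm8300 was the member with its lowest level in a blastoid library.

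The comparison of EPSC with ESC asks how the members differ between the stem cell states. A gene was called different between 2 libraries when the log2 ratio, with a prior count of 2, was at least 2-fold from 0, the interval lay wholly on that side of equality, and at least 20 counts stood in 1 of them. The 9 comparisons share libraries, the untreated EPSC and ESC libraries among them, so their values are not independent of each other. All 8 members were called lower in EPSC than in ESC, where 8.05% of 13847 genes were called lower and 9.58% higher. The Zscan4 sum had a log2 ratio of -2.88 (-3.21 to -2.61), Tmem92 -2.93 (-4.83 to -2.10), Gm8300 -2.58 (-3.57 to -1.98) and Usp17la -2.38 (-3.96 to -1.56). Among the copies the ratios ran from -3.30 in Zscan4c to -2.45 in Zscan4d. The median over the members was -2.63, that over all genes 0.03. Primitive endoderm markers moved the other way, with 6 of 8 tested called higher in EPSC and a median of 2.33, and 2 of 10 pluripotency markers were called lower. Their part in the members' difference was not tested.

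With T09 in both states, 6 of the 6 members with enough counts were called lower in EPSC T09 than in ESC T09, against 9.77% of genes called lower and 8.33% higher. The Zscan4 sum stood at -2.52 (-2.92 to -2.21) and Gm8300 at -1.57 (-2.39 to -0.96). Usp17la and Tmem92 had under 20 counts in both libraries and were not tested, with log2 ratios of 0.26 (-0.82 to 1.44) and -1.94 (-5.01 to -0.79). Usp17la was thus the only measured member whose ratio changed sign between the treated and the untreated pair, on 18 against 13 counts with T09. The sum of the Usp17-like rows kept its sign, at -2.10 (-2.73 to -1.63) untreated and -0.66 (-1.15 to -0.21) with T09.

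Both pairs entered 1 edgeR quasi-likelihood fit of state plus T09 over the 4 stem cell libraries, with 1 residual degree of freedom and p-values adjusted by Benjamini-Hochberg over all 14477 genes tested. In it 7 of 8 members fell in EPSC and 0 rose, while 14.5% of all genes fell and 14.3% rose. The median log2 change was -2.76 over the members and 0.0040 over all genes. The summed Zscan4 row changed by -2.75 (SE 0.211), with an edgeR adjusted p of 2.18e-05. The copies lay between -2.92 (Zscan4b, SE 0.505) and -2.52 (Zscan4d, SE 0.331), and since they may share reads they are not 5 separate measurements. Tmem92, the member with the most distinct transcript, changed by -3.02 (SE 0.686, edgeR adjusted p = 0.00971), and Gm8300 by -2.19 (SE 0.447, edgeR adjusted p = 0.00575). Usp17la did not pass, at -1.19 (SE 0.769, edgeR adjusted p = 0.283). The 1 residual degree of freedom holds the departure of the 4 libraries from additive effects of state and T09. A T09 response that differs between the states therefore counts as noise in these p-values, and that departure may also be technical. The samples give no information on separate cultures, so the p-values do not measure spread between cultures.

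**Figure D3:**
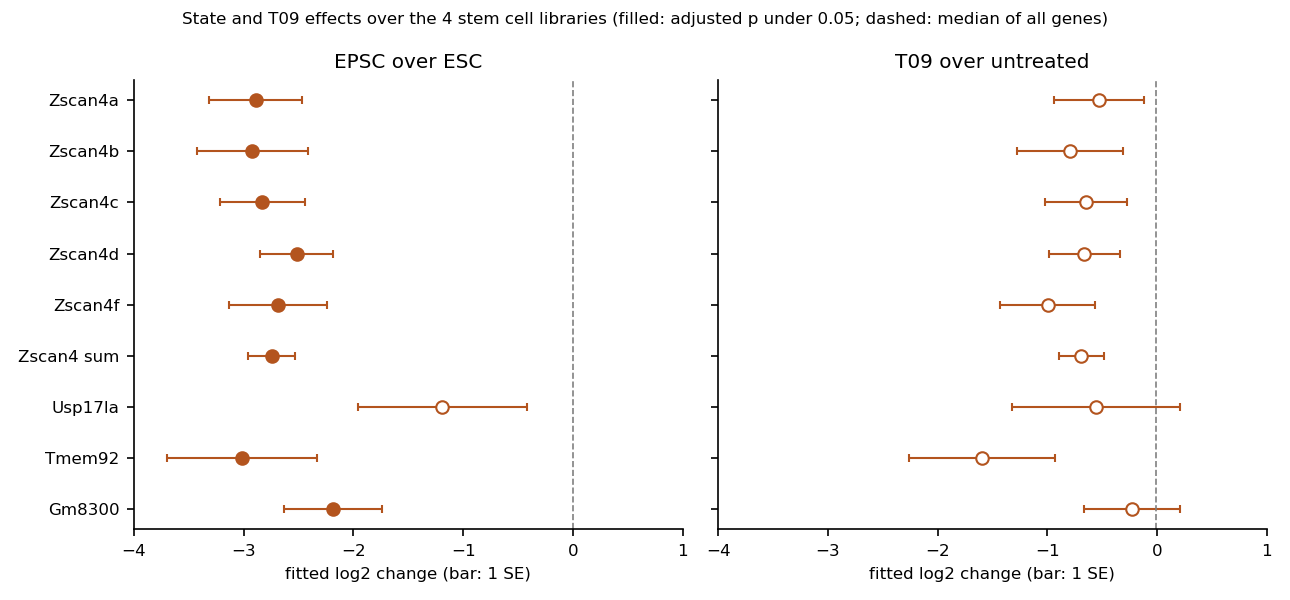
Fitted log2 change of each member (x axis, bars of 1 SE) for EPSC over ESC on the left and T09 over untreated on the right, from edgeR over 4 libraries. Filled points have an adjusted p under 0.05: these are 7 of the 8 members and the Zscan4 sum on the left, and none on the right.

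The T09 libraries ask what LXR activation does in each state. In ESC, 4 of 8 members were called lower with T09, where 2.53% of genes were called lower and 1.40% higher. These were Usp17la at -1.72 (-2.89 to -0.95), Tmem92 at -1.69 (-2.72 to -0.98), Zscan4f at -1.28 (-1.80 to -0.84) and Zscan4c at -1.09 (-1.45 to -0.76). The Zscan4 sum, at -0.83 (-1.01 to -0.66), lay beyond counting error but short of 2-fold. The other members ran from -0.74 (Zscan4b) to -0.30 (Zscan4a), and the interval of Zscan4a included 0. The members' median was -0.91, that of all genes 0.01.

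In EPSC, 0 of the 4 members with enough counts were called, with 3.26% of genes called lower and 0.88% higher. The Zscan4 sum had a log2 ratio of -0.48 (-0.93 to -0.06). Usp17la, at 0.91 (-0.19 to 2.50), and Gm8300, at 0.37 (-0.54 to 1.40), lay on the other side of 0, as did Zscan4c at 0.09 (-0.77 to 0.97), and all 3 intervals included it. Over both states the edgeR fit called 0 of 8 members for T09, at 0.0898% of genes higher and 0.0138% lower. All 8 fitted changes were below 0, with a median of -0.66 against -0.0044 for all genes. The Zscan4 sum changed by -0.69 (SE 0.203), with an edgeR p of 0.00742 before and 0.545 after adjustment. Before adjustment 2 members, Tmem92 and Zscan4f, had an edgeR p under 0.05 (0.0389 and 0.0468), as did 879 of all 14477 genes. Over DESeq2, limma-voom and the other settings the adjusted p of the Zscan4 sum was 0.365 to 1.00. Whether T09 acts differently in the states could not be tested, since the fit has no degree of freedom for it.

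Day 2 blastoids were compared with untransfected EPSC, from which they differ in siRNA, medium, aggregation and time, which cannot be told apart here. All 8 members were called higher in siNT than in EPSC, with 14.5% of genes called higher and 11.2% lower. The Zscan4 sum was 26.6-fold higher (21.9 to 32.7), Tmem92 45.9-fold (20.8 to 126), Usp17la 37.1-fold (18.6 to 86.7) and Gm8300 20.9-fold (12.9 to 36.3). The members' median log2 ratio was 4.74, that of all genes -0.04. Over ESC, a comparison added after the values were seen, siNT was still higher by 1.83 on the log2 scale for the Zscan4 sum (1.71 to 1.95), 2.50 for Usp17la (2.09 to 3.04), 2.16 for Tmem92 (1.77 to 2.66) and 1.64 for Gm8300 (1.33 to 1.99). Pluripotency markers moved the other way over the same libraries, with 5 of 10 called lower in siNT than in EPSC and 0 higher, while primitive endoderm markers had 10 of 10 called higher. Their part in the members' levels was not tested.

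Knockdown of Nr1h2 was compared with siNT within the day 2 blastoids. Of the 8 members 0 were called, with 1.49% of genes called higher and 2.17% lower. The Zscan4 sum was 1.18-fold higher in siNr1h2 (1.12 to 1.25). Zscan4d had the highest log2 ratio with 0.52 (0.35 to 0.70), and Gm8300 the lowest with -0.50 (-0.77 to -0.23). For Usp17la (-0.18, -0.45 to 0.09) and Tmem92 (-0.11, -0.39 to 0.16) the interval included 0 and bounds the difference that these counts allow.

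Type I and Type III blastoids were compared with each other and with EPSC T09, so these 3 comparisons share libraries. Between the picked types, 7 of 8 members were called lower in Type I, with 5.77% of genes called lower and 1.93% higher. Gm8300 differed most, with a log2 ratio of -3.11 (-4.31 to -2.45), that is, 12 against 109 counts. The Zscan4 sum stood at -1.57 (-1.78 to -1.38), Usp17la at -1.27 (-2.08 to -0.64) and Tmem92 at -1.07 (-2.26 to -0.18). Zscan4a was at -2.52 (-3.33 to -1.98), and Zscan4f, at -0.81 (-1.25 to -0.41), was the member not called. The members' median was -1.59, that of all genes 0.01. Pluripotency markers were lower in Type I as well, with 7 of 10 called and sums of 851 against 1586 CPM. Primitive endoderm markers summed to 22429 against 12645 CPM, with 1 of 10 called higher, 0 lower and a median log2 ratio of 0.47. Of 9 trophectoderm markers tested, 3 were called lower and 0 higher. The part of cell makeup in the members' difference was not tested.

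The day 5 blastoids differ from EPSC T09 in medium, aggregation, picking and time, which cannot be told apart here. Over EPSC T09, Type III had 8 of 8 members called higher, where 21.7% of genes were called higher and 16.0% lower. The Zscan4 sum was 11.9-fold higher (9.47 to 15.2) and Gm8300 5.59-fold (3.57 to 9.10). In Type I, 5 of 7 members with enough counts were called higher, where 22.7% of genes were higher and 18.1% lower. These 5 were the Zscan4 copies, from a log2 ratio of 1.09 in Zscan4a to 2.60 in Zscan4f, and their sum was 4.00-fold higher (3.11 to 5.20). Usp17la, at 0.59 (-0.28 to 1.61), and Gm8300, at -0.73 (-1.96 to 0.23), were not called. Tmem92 had under 20 counts in both libraries. Both day 5 libraries were below siNT, a comparison also added after the values were seen. They differ from siNT in day, T09, transfection and picking, which cannot be told apart here. Over siNT the log2 ratio of the Zscan4 sum was -1.65 in Type III (-1.77 to -1.53) and -3.22 in Type I (-3.41 to -3.05), and that of Gm8300 was -1.48 and -4.58.

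**Figure D4:**
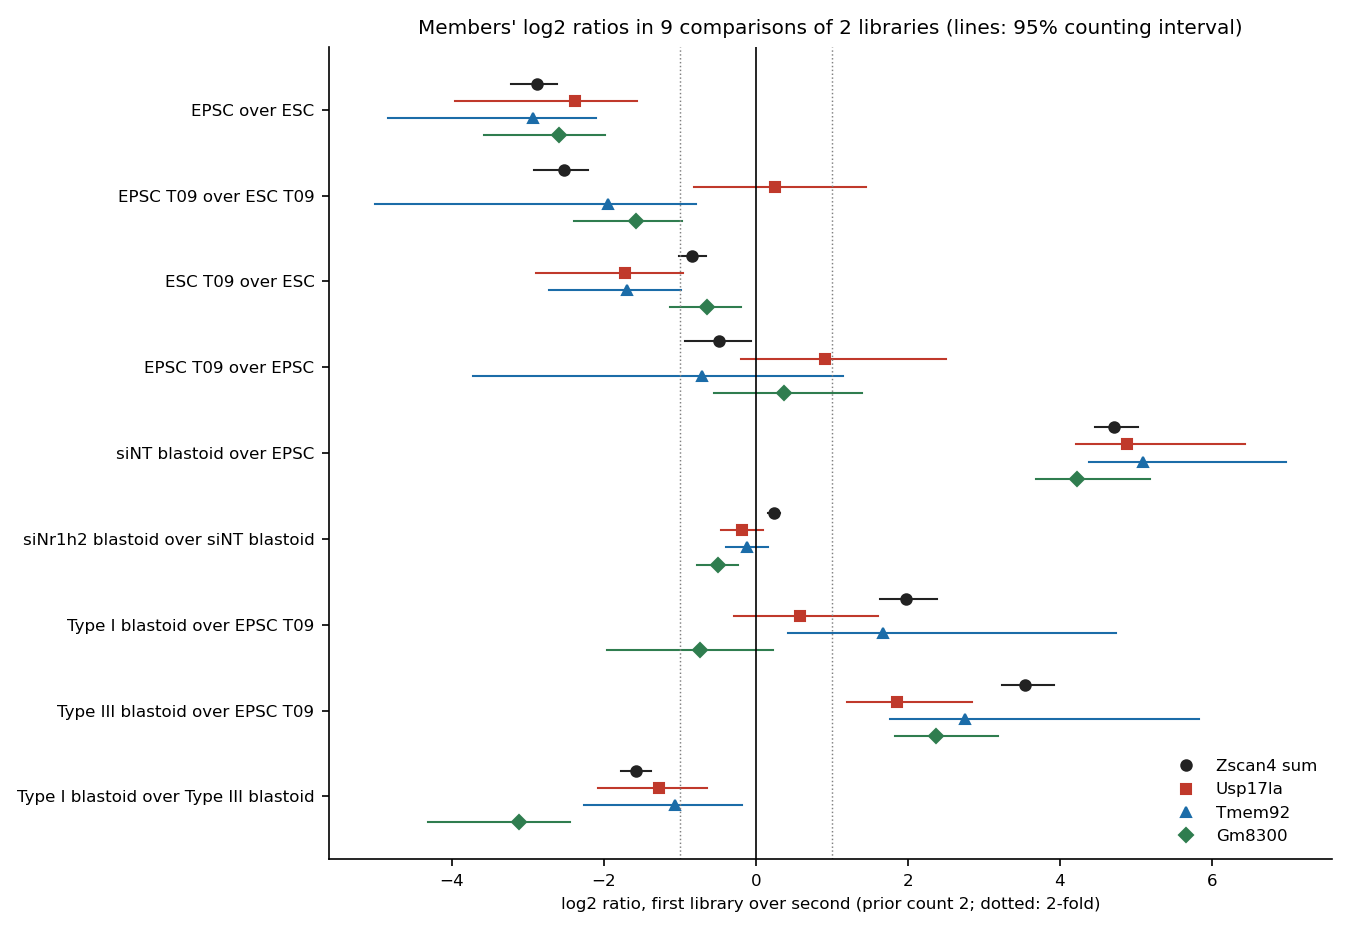
Log2 ratio of the first over the second library (x axis) for the Zscan4 sum, Usp17la, Tmem92 and Gm8300 in 9 comparisons (y axis), with 95% counting intervals as lines and 2-fold as dotted lines. The 4 entries lie between -2.93 and -2.38 in EPSC over ESC and between 4.22 and 5.09 in siNT over EPSC, whereas Usp17la and Gm8300 depart from the Zscan4 sum in Type I over EPSC T09.

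Other genes of the 2-cell-like program were taken from a list of 77, of which 63 were in the table and 17 of those had 0 counts in every library. In EPSC over ESC, 23 were tested, 13 were called lower and 6 higher, with a median log2 ratio of -1.37, beside 8.05% lower and 9.58% higher over all genes. In EPSC T09 over ESC T09, 21 were tested, 8 were called lower and 7 higher, with a median of -0.51, beside 9.77% and 8.33%. In siNT over EPSC, 35 were tested, 25 were called higher and 4 lower, with a median of 3.21, beside 14.5% and 11.2%. In Type I over Type III 21 were tested, with 10 called lower and 0 higher, beside 5.77% and 1.93%. ESC T09 over ESC had 22 tested, 4 called lower and 0 higher, with a median of -0.60, beside 2.53% and 1.40%. EPSC T09 over EPSC had 17 tested, 0 called lower and 2 higher, with a median of 0.02, beside 3.26% and 0.88%. In the edgeR fit of state 9 of 25 fell and 6 rose, beside 14.5% and 14.3%, and 7 fell by DESeq2. By total count the leading genes of the list were Pramef12, Rpl39l, Pramef8, P4ha2, Ddit4l, Nlrp4f, Pramel6, Zfp560, Pramel7 and Usp17le. Usp17le, a relative of Usp17la, ran from 0.183 CPM in EPSC to 19.1 CPM in siNr1h2. Pramel6 and Pramel7 had 0 to 1 counts in the day 5 blastoids and 491 to 941 and 204 to 789 in ESC libraries, and in the edgeR fit Rpl39l, Nlrp4f, Pramef8 and Zfp560 rose in EPSC, by 1.11 to 1.84 on the log2 scale.

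Dux, the activator of Zscan4, was near the limit of these libraries. It had 21 counts in ESC, 3 in ESC T09, 1 in EPSC, 1 in EPSC T09, 56 in siNT, 36 in siNr1h2, 8 in Type III and 0 in Type I. The day 2 blastoids and ESC thus held most of its 126 counts, and these were also, with Type III, the libraries where the Zscan4 sum reached 20.8 CPM or more. Dux was called lower in EPSC than in ESC, with a log2 ratio of -3.06 (-9.97 to -1.96) on 1 against 21 counts. It was also called lower in ESC T09 than in ESC, at -2.30 (-5.31 to -1.17) on 3 against 21. In EPSC T09 over ESC T09 it stood at -0.79 (-7.47 to 1.88) on 1 against 3 counts, an interval that included 0. Type I held 23 Zscan4a, 72 Zscan4c and 87 Zscan4d counts with 0 for Dux, which allows Dux up to the level of 3 counts there.

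Dppa2 and Dppa4, upstream activators, were at 78.7 to 165 CPM in the stem cell and day 2 libraries and at 25.8 to 73.0 CPM at day 5. The 2 pairs disagreed for Dppa2, with a log2 ratio of -0.31 (-0.37 to -0.25) in EPSC over ESC and 0.60 (0.55 to 0.66) in EPSC T09 over ESC T09, and the edgeR fit over both gave 0.14 (SE 0.181, adjusted p = 0.613). Dppa4 rose in EPSC by 0.62 (SE 0.113, edgeR adjusted p = 0.00321). Dppa3, a maternal factor that protects methylation, was at 3.10 to 21.6 CPM and highest in Type III. Among the other listed regulators the naming rule took Gata2, Ring1, Tet2 and Zmym2. It took them for their distance from 0 in EPSC over ESC, with the same sign under T09. A state change in the fit on these same libraries was thus built in, and their values are a description only. Gata2, a GATA factor reported to activate part of the program, fell in EPSC by 2.75 on the log2 scale (SE 0.286), from 7.57 to 0.838 CPM. Tet2, a methylcytosine dioxygenase, fell by 1.05 (SE 0.104), while Ring1 and Zmym2, parts of repressive complexes, rose by 0.94 (SE 0.180) and 0.53 (SE 0.118). Over the whole lists, 2 of 10 activators tested rose and 4 fell in EPSC, and 6 of 35 repressors rose and 6 fell, where 14.3% of all genes rose and 14.5% fell.

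**Figure D5:**
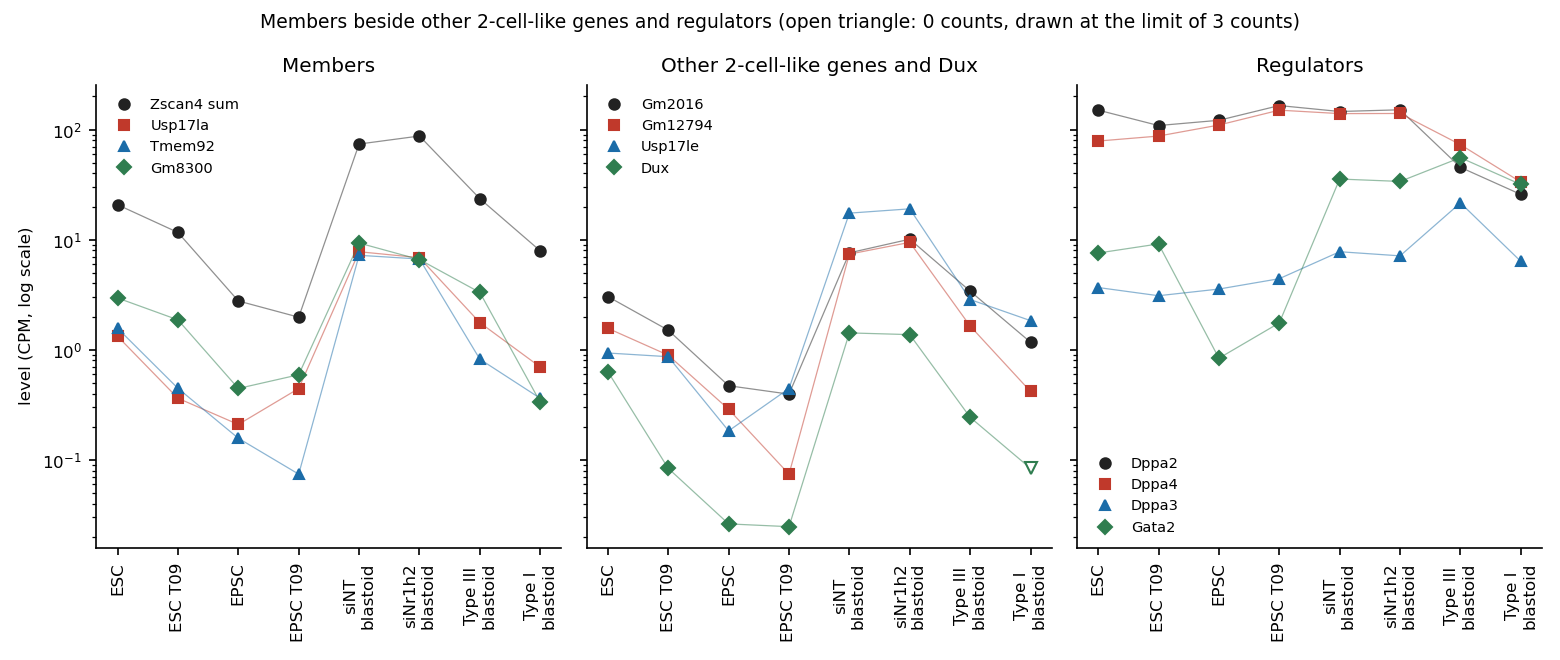
Level (y axis, CPM on a log scale) of 4 members or sums, 4 other 2-cell-like genes and 4 regulators in the 8 libraries (x axis); the open triangle is Dux in Type I, with 0 counts, drawn at the limit of 3 counts. Gm2016, Gm12794, Usp17le and Dux are high where the members are, while Dppa2 and Dppa4 stay between 78.7 and 165 CPM in the stem cell and day 2 libraries. The genes shown do not represent their list. Gm2016 and Gm12794 are among the rows most like the Zscan4 sum, and Usp17le is a relative of Usp17la. Other listed genes that are not shown, such as Pramef8, Pramel6 and Rpl39l, do not follow the members.

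The likeness of other rows to the Zscan4 sum was taken as Pearson's r of log2 CPM over the 8 libraries, across 13773 rows with at least 50 counts in 1 library, as a description. The 10 most alike were Gm2016 (r = 0.997), Tbc1d4, Gm12794 (0.986), Fbln2, Fam49a, Otud6b, Zfp110, Rapgef5, Tprkb and Dcc (0.976). Of these, Gm2016, an Eif1a-like gene, and Gm12794, a Prame-like gene, belong to the listed 2-cell-like genes. They also shared the range of the members, 0.395 to 10.1 CPM and 0.0741 to 9.46 CPM. By contrast Otud6b and Zfp110 spanned a range of only 1.71-fold and 1.42-fold, against 44.3-fold for the Zscan4 sum, since r ignores size. With ranks in place of values, 3 of the 10 stayed. Among the members themselves r with the Zscan4 sum was 0.976 for Tmem92, 0.920 for Usp17la and 0.913 for Gm8300, and each Zscan4 row had r of 0.973 to 0.996 with the sum of the others. Dux was at rank 117, with r = 0.906. These 8 points include pairs of libraries made alike, so they are not independent samples.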

How the data were processed

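The authors deposited raw counts per gene symbol for 8 libraries, and the submitters' processing notes list the tools HTSeq, STAR and Cuffnorm and the genome build mm9 without versions. The treatment of reads that map to several genes, and the strand setting, are not given in the sources used here. Per the labels' protocols, DNase-treated total RNA was sequenced with a strand-specific library kit. No column was without a sample.

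Counts were scaled by TMM (edgeR 4.0.16, R 4.3.3). Pairs of libraries were compared by log2 ratios with a prior count of 2 and 95% exact conditional (Clopper-Pearson) intervals. Since the reads carry no molecular identifiers and need not be separate molecules, these intervals and limits speak for counting error alone. The edgeR quasi-likelihood fit used filterByExpr and a threshold of 0.05 on adjusted p-values, and was repeated with the Zscan4 rows replaced by their sum. Both procedures were tested on simulated data with changes placed only in genes of higher counts, so members with few counts are not covered. The data simulated for the ratios held counting error alone. Alternatives used DESeq2 1.42.0 and limma 3.58.1, other scalings, prior counts, minimums and fold thresholds.

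The members, lists, comparisons and motifs were chosen with earlier results of these data known. Named were all members, the 10 other listed 2-cell-like genes with the highest total count, Dux, Dppa2, Dppa3 and Dppa4 with the 4 other regulators furthest from 0 in EPSC over ESC and of the same sign with T09, and the 10 rows most like the Zscan4 sum. Gm2022, Gm5662 and Gm5039 are named only for their sequence. Symbols matched GENCODE M21 for 24409 of 24888 rows. That annotation and the RefSeq promoters are of GRCm38, not of mm9, so they served for names, lengths and sequences only.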

Additional observations from a re-analysis of the deposited data

Results flagged for a closer look

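Members, the sums and all named genes, 38 in all, were screened for a T09 response of opposite sign in ESC and EPSC beyond counting error, and 6 met it. The share of all genes meeting this rule was not computed, so 6 of 38 is not a result about these genes. The rule set no minimum fold, so genes with many counts could meet it with small shifts. None of these differences was tested, since each group held 1 library. The sum of the 5 Usp17-like rows, Usp17la among them, was lower with T09 in ESC, with a log2 ratio of -0.66 (95% counting interval -1.06 to -0.28), and higher in EPSC, at 0.78 (0.21 to 1.44). The difference between both ratios, EPSC minus ESC, was 1.44 on the log2 scale. It rested on 140 and 95 counts in ESC and 36 and 67 in EPSC. Usp17la alone had the same signs, -1.72 and 0.91, and its interval in EPSC included 0. The Zscan4 sum was below 0 in both states, at -0.83 and -0.48.

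The other 5 were not members. Dppa2 was lower with T09 in ESC (150 to 109 CPM) and higher in EPSC (122 to 165 CPM), a difference of 0.91. P4ha2 was higher in ESC (4.82 to 8.71 CPM) and lower in EPSC (6.31 to 3.93 CPM), a difference of -1.52. For Pramef12, Rpl39l and Zmym2 the difference was smaller, at -0.47, 0.47 and -0.38.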

How the results depend on the processing

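No paired analysis was possible because each group held 1 library. The edgeR results for state and T09 kept their direction and their side of the threshold for the 8 members and the Zscan4 sum under RLE size factors, no filter, DESeq2 and limma-voom. Of 25 other 2-cell-like genes tested, 9 fell in EPSC by edgeR and 7 by DESeq2, where 2103 and 1648 of 14477 genes fell. T09 lowered 2 of 44 with no filter and 1 of 25 by DESeq2. Over all genes it lowered 23 of 18824 with no filter and 16 of 14477 by DESeq2. Of the 35 repressors 5 rather than 6 rose under RLE, no filter and DESeq2. Over all genes 2035 of 14477, 2107 of 18824 and 1503 of 14477 rose in EPSC in these settings. Of the 153 alternative log2 ratios of the Zscan4 sum, Usp17la, Tmem92 and Gm8300, 0 changed sign. With Zscan4c, Zscan4d and Zscan4f only, the Type I over Type III sum was -1.35.

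The counts of members called depended most on the thresholds. Shares of all genes called were taken only at the main 2-fold rule, so the counts below lack that comparison. At 1.5-fold, 7 members were called in ESC T09 over ESC. At 4-fold, 0 were called there, 2 in Type I over Type III and 1 in Type I over EPSC T09. With a minimum of 100 counts, which removes members from the test, the number was 2 in ESC T09 over ESC, 4 in EPSC over ESC, 2 in EPSC T09 over ESC T09, 4 in Type I over Type III, 0 in Type I over EPSC T09 and 5 in Type III over EPSC T09. Ranking by Spearman's rho kept 3 of the 10 rows most like the Zscan4 sum. Low counts limit EPSC most, where Tmem92 and Usp17la had 3 to 18 counts a library.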
